A study of Mus musculus with 2 samples.

Results

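The 50 genes described here are cell cycle and DNA replication genes, chosen by name, with earlier results of these data known. They were placed in a G1 group of 18 genes, an S group of 14 and a mitotic group of 18. A read aligned across a splice junction was credited to a gene where the junction matched an intron annotated to that gene alone. A gene was measured with at least 20 such reads over both libraries. By that rule 34 of the 50 genes were measured, of 8364 measured genes among 10543 with matched introns. The measured members were 15 in the G1 group, 9 in the S group and 10 in the mitotic group.

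The cells were macrophages that adhered from exudate cells of the peritoneum, taken from male C57BL/6JJcl mice 3 days after an injection of thioglycolate, an irritant that draws leukocytes into the cavity. They adhered for 24 h before non-adherent cells were washed off. The treated library came from cells exposed for 4 h to 100 ng/ml of interleukin-10 (IL-10), a cytokine known for damping inflammatory responses, and the other library from cells left untreated. The number of mice behind each library is not given in the sources used here.

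Cells divide when D-type cyclins with Cdk4 or Cdk6, and then cyclin E with Cdk2, phosphorylate the retinoblastoma (pocket) proteins and free E2F transcription factors to induce replication genes. The MCM helicase, loaded at origins by Cdc6 and Cdt1, then opens DNA for copying, and mitosis follows under Cdk1 with the A- and B-type cyclins, the Plk1 and Aurora kinases and the spindle checkpoint. Macrophages elicited into the peritoneum are mostly differentiated cells that arrived as monocytes. The results follow the order of the cycle.

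With 1 library in each group no test between conditions was possible. Each ratio below is IL-10 over untreated, after division by each library's uniquely named spliced reads. Where a gene was read from its intron with the most reads, the divisor was each library's reads on such introns of all genes. The bracketed range is an exact conditional binomial 95% interval that covers counting error only. This interval says nothing of the spread between animals or cultures. Calls needed a 2-fold ratio in either direction (2 or more, 0.5 or less) together with an interval that left out 1.

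The libraries held 3998954 (IL-10) and 4035991 (untreated) reads on junctions, of which 3837584 and 3866163 were uniquely named. The labelled cell type was checked on 11 macrophage markers with introns, of which 10 were measured, with 65904 reads (IL-10) and 82001 reads (untreated). Lyz2 alone held 31849 and 45047 of these reads. The markers went both ways, with 5 intervals above 1 and 4 below. Of 10 T and NK cell markers none was measured, with 11 reads (IL-10) and 2 reads (untreated) in all. Among 12 fibroblast and mesothelial markers 6 were measured, with 1401 and 1248 reads, and collagen genes made up most of them. The B cell list had 2 of 8 markers measured with 490 and 547 reads, mostly on Cd22, while Cd79a and Pax5 had 0. The neutrophil list had 3 of 12 measured with 932 and 868 reads, while S100a8, S100a9 and Ly6g had 0. Dendritic cell markers had 7281 and 6712 reads, nearly all on Itgax. Erythroid and platelet markers had 512 and 606, mostly on Pf4, and eosinophil and mast cell markers 106 and 71, mostly on Siglecf. Resident peritoneal macrophage markers had 185 and 205, with 7 of 9 measured and 1 called higher (Selp, 29 and 6 reads). In these lists only genes with at least 2 introns matched together are counted, so 0 can mean unmatched rather than absent. The macrophage marker Cd14 also had 0 reads in both libraries. The part of these other cells in the members' reads was not tested. In a bulk library fewer dividing cells and less RNA per cell cannot be told apart.

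No member was called. Over all measured genes 1.75% were called higher and 1.49% lower, and 0 of 34 genes is not far from those shares. By the interval alone, without a minimum fold, Mcm2 was the 1 member above 1 (2.94% of 34, against 12.8% of all measured genes). Rb1, Rbl1, Mcm6 and Bub3 were the 4 members below 1 (11.8%, against 13.0%). The share above 1 lay under that of all genes and the share below 1 was close to it. Intervals are narrow only where reads are many, and the members' median level was at the 27.4th percentile of measured genes. The plot of ratios with their intervals shows the 34 genes by group.

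**Figure D1:**
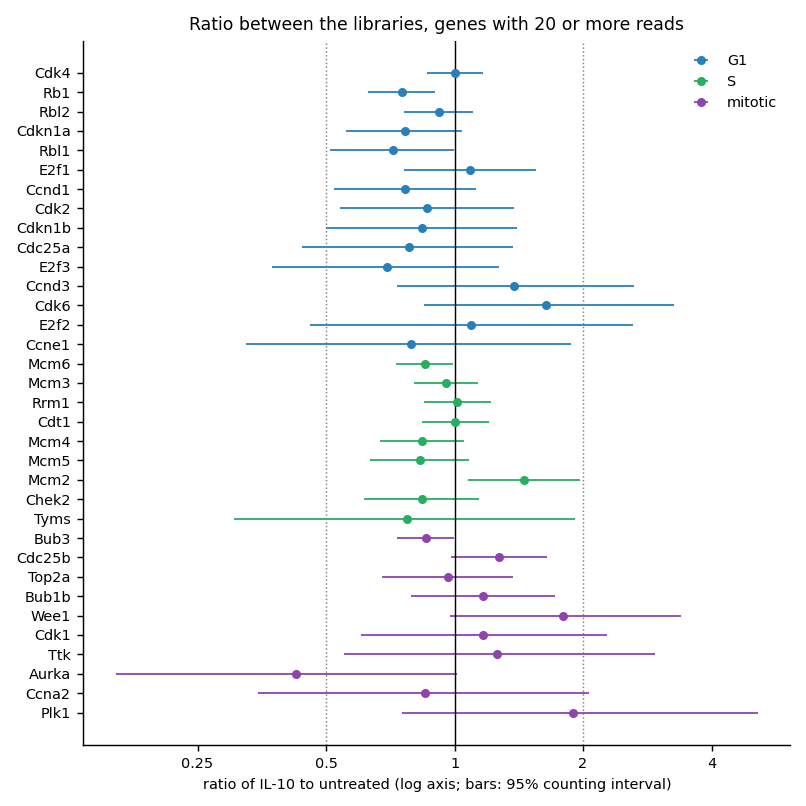
Ratio of IL-10 to untreated for the 34 measured genes (log axis), ordered by reads within each group, with bars for the 95% counting interval, a solid line at 1 and dotted lines at 0.5 and 2. Most bars cross 1, and the exceptions are Mcm2 above it and Rb1, Rbl1, Mcm6 and Bub3 below it.

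The ratios were close to 1 for most members: 30 of the 34 lay within 1.5-fold, with 14 above 1 and 20 below. On the log2 scale, with a pseudocount of 0.5 reads, the median of the members was -0.17, beside -0.00 for all measured genes. The group medians were -0.25 for G1, -0.23 for S and 0.22 for mitotic genes. These medians moved with the processing. With a minimum of 100 reads they were -0.38 for G1, -0.15 for S and 0.08 for mitotic genes, and with the intron with the most reads standing for each gene they were -0.06, -0.10 and -0.15, so that the mitotic median changed sign. Summed over the group, mitotic genes had 724 reads with IL-10 and 738 without, a ratio of 0.988 (0.891 to 1.10). The G1 sum was 1227 against 1401 reads, a ratio of 0.882 (0.817 to 0.953), and the S sum was 1521 against 1631, a ratio of 0.940 (0.876 to 1.01). Of the G1 genes Rb1 had the largest difference in reads, with 214 against 287.

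**Figure D2:**
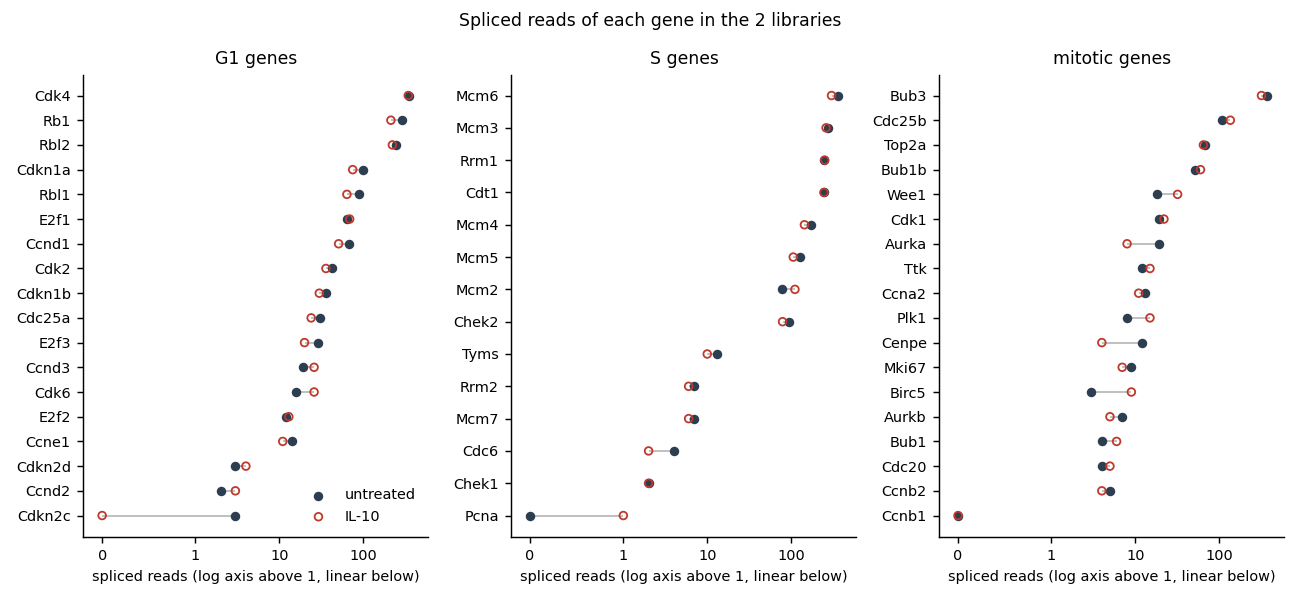
Spliced reads of each of the 50 genes in the untreated library (filled) and the IL-10 library (open), on an axis that is logarithmic above 1 and linear below. The pairs of points lie close together for the abundant genes, such as Cdk4 with 345 and 347 reads, and farther apart mainly where reads are few.

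The D-type cyclins bring Cdk4 and Cdk6 to the retinoblastoma protein in response to growth signals. Ccnd1 had 51 reads with IL-10 and 67 without, a ratio of 0.767 (0.522 to 1.12), and all 4 of its introns with at least 5 reads were lower with IL-10. Ccnd3 had 26 and 19 reads, a ratio of 1.38 (0.734 to 2.64). Ccnd2 was seen on a lone junction with 3 and 2 reads and was not measured. Cyclin E1, which acts later with Cdk2, had 11 and 14 reads on Ccne1, a ratio of 0.792 (0.325 to 1.88). None of the cyclin intervals excluded 1.

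Among the kinases Cdk4 was the most abundant. It had 345 reads with IL-10 and 347 without, a ratio of 1.0 (0.860 to 1.17). Cdk2 had 36 and 42 reads, a ratio of 0.864 (0.538 to 1.38). Cdk6, which can replace Cdk4 in blood cells, had 26 and 16 reads, a ratio of 1.64 (0.846 to 3.27), the highest of the G1 group. Cdc25a, the phosphatase that removes inhibitory phosphates from Cdk2, had 24 and 31 reads, a ratio of 0.780 (0.438 to 1.37). The last exon joins of the 3 kinases Cdk1, Cdk2 and Cdk4 are printed here because these genes have to be told apart by the reads across them. Each line gives 15 coding bases of the upstream exon in lower case and 15 of the downstream exon in capitals, from the GENCODE M21 transcripts (GRCm38), 5′ to 3′ on the gene's strand. All 3 are at intron 7, which in mm9 lies at chr10:68801345-68803228 (minus strand) for Cdk1, chr10:128136267-128136527 (minus strand) for Cdk2 and chr10:126503293-126503984 (plus strand) for Cdk4.
Cdk1: ttggatttgctctcaAAAATGCTAGTCTAT
Cdk2: cggagcttgttatcgCAAATGCTGCACTAT
Cdk4: gcgcagctgctactgGAAATGCTGACCTTT
These joins share 16 to 18 of 30 bases pairwise. The join of Cdk4 held 109 reads with IL-10 and 120 without, that of Cdk2 held 18 and 11, and that of Cdk1 held 4 and 7. The Cdk2 join alone gave a ratio of 1.69, on the other side of 1 from the gene's sum. That ratio was scaled to the most-read introns of all genes.

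The inhibitors of these kinases were measured for the Cip and Kip family. Cdkn1a, which encodes p21 and is a target of p53, had 75 reads with IL-10 and 99 without, a ratio of 0.763 (0.558 to 1.04). Both of its introns with at least 5 reads were lower with IL-10. Cdkn1b, which encodes p27, had 30 and 36 reads, a ratio of 0.840 (0.499 to 1.4). Of the INK4 inhibitors of Cdk4 and Cdk6, Cdkn2c had 0 and 3 reads, and Cdkn2d was seen on a lone junction with 4 and 3 reads. Neither INK4 gene was measured.

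The pocket proteins bind E2F factors and hold their target genes in check, and 2 of the 3 had intervals below 1. Rb1, the retinoblastoma gene, had 214 reads with IL-10 and 287 without, a ratio of 0.751 (0.626 to 0.90). Of its 21 introns with at least 5 reads, 15 were lower with IL-10, as the plot of reads on each intron shows. Rbl1 (p107) had 64 and 90 reads, a ratio of 0.716 (0.512 to 0.998), with an upper bound close to 1 and with 4 of 8 introns lower. With the TMM factor in place of the read total its interval ran from 0.514 to 1.002. Rbl2 (p130), the pocket protein that predominates in resting cells, had 223 and 245 reads, a ratio of 0.917 (0.761 to 1.10). The joins that held most reads for each are printed to show the site behind the counts: Rb1 intron 22 at chr14:73605715-73605816 (minus strand), Rbl1 intron 20 at chr2:156976570-156978631 (minus strand) and Rbl2 intron 20 at chr8:93639149-93639560 (plus strand), all in mm9, with the upstream exon in lower case and the downstream exon in capitals.
Rb1: tatgcctccaccaggCCTCCTACCTTGTCA
Rbl1: aatcaggaccatataATGGATGCTCCCCCG
Rbl2: caggcaaacgcgcagACGGACACTCCTCCC
The Rbl1 and Rbl2 joins share 13 of 30 bases, 10 of them in the downstream exon. Their reads were 43 and 54 for Rb1, 7 and 19 for Rbl1, and 79 and 85 for Rbl2 (IL-10, then untreated). The Rbl1 join alone, scaled to the most-read introns of all genes, gave a ratio of 0.381, farther from 1 than the gene's sum.

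The E2F activators drive the genes of S phase. E2f1 had 69 reads with IL-10 and 64 without, a ratio of 1.09 (0.762 to 1.55). E2f2 had 13 and 12 reads, a ratio of 1.09 (0.459 to 2.62). E2f3 had 20 and 29 reads, a ratio of 0.695 (0.373 to 1.27), the lowest of the G1 group. No E2F interval excluded 1.

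**Figure D3:**
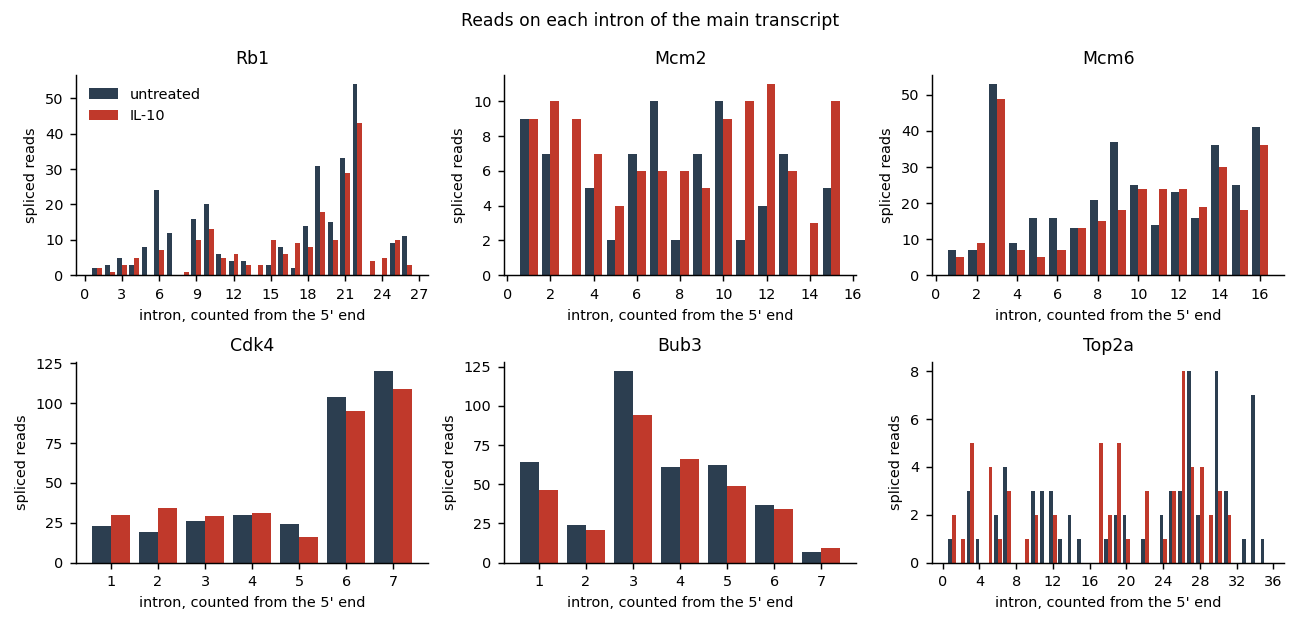
Spliced reads on each intron of the main transcript of 6 genes, counted from the 5′ end, in the untreated library (dark) and the IL-10 library (red). In Rb1, Cdk4 and Bub3 reads vary more between introns than between the libraries, and Rb1 and Mcm6 are lower with IL-10 at 15 of 21 and 11 of 16 introns with at least 5 reads.

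Of the S group, Cdt1, which loads the MCM helicase at origins, had 246 reads with IL-10 and 247 without, a ratio of 1.0 (0.838 to 1.20). Its partner Cdc6 had 2 and 4 reads and was not measured. Within the hexameric MCM helicase, Mcm2 had 111 reads with IL-10 and 77 without, a ratio of 1.45 (1.08 to 1.97), the 1 member with an interval above 1. Mcm6 had 303 and 359 reads, a ratio of 0.850 (0.727 to 0.994). Subunits of the same complex thus had intervals on opposite sides of 1, at ratios below the 2-fold of a call.

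Mcm2 was higher with IL-10 on 9 of its 14 introns with at least 5 reads, and Mcm6 was lower on 11 of 16. The intron of Mcm2 with the most reads had 9 and 10, a ratio of 0.931, so its excess came from other introns. With a 99% interval both genes included 1. None of the other subunits had an interval that excluded 1. Mcm3 had 261 and 276 reads, a ratio of 0.953 (0.801 to 1.13). Mcm4 had 144 and 173 reads, a ratio of 0.839 (0.668 to 1.05), and Mcm5 had 106 and 129 reads, a ratio of 0.828 (0.634 to 1.08). Mcm7 had 6 and 7 reads and was not measured. Over all 6 subunits the reads were 931 and 1021, a ratio of 0.919 (0.840 to 1.0).

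The joins of Mcm2 and Mcm6 with the most reads are printed because these genes were the ones of the helicase whose intervals excluded 1. They are Mcm2 intron 10 at chr6:88837622-88837713 (minus strand) and Mcm6 intron 3 at chr1:130248260-130250036 (minus strand), in mm9, upstream exon in lower case and downstream exon in capitals.
Mcm2: gacgagtttgacaagATGAATGACCAGGAC
Mcm6: acctactagacacaaGATTCGTGAGCTCAC
The Mcm6 join held 49 reads with IL-10 and 53 without.

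Ribonucleotide reductase makes the deoxynucleotides for copying. Its large subunit Rrm1 had 251 reads with IL-10 and 249 without, a ratio of 1.02 (0.849 to 1.22). The small subunit Rrm2, whose transcript is made chiefly in S phase, was seen on a lone junction, 1 of 9 introns, with 6 and 7 reads. Tyms, which makes thymidylate, had 10 and 13 reads, a ratio of 0.775 (0.304 to 1.91). Pcna, the sliding clamp of the replicative polymerases, was seen on a lone junction with 1 read, in the IL-10 library. Of the checkpoint kinases, Chek2 had 79 and 95 reads, a ratio of 0.838 (0.614 to 1.14), and Chek1 had 2 and 2 reads and was not measured.

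Of the mitotic group 8 of 18 genes were not measured, the largest share of the 3 groups. Of the cyclins, Ccna2 had 11 reads with IL-10 and 13 without, a ratio of 0.852 (0.346 to 2.06), and Ccnb2 had 4 and 5 reads. No junction was matched to Ccnb1 in either library. Cdk1, the kinase of these cyclins, had 22 and 19 reads, a ratio of 1.17 (0.603 to 2.28). The switch at mitotic entry is set by Cdc25b, a phosphatase that activates Cdk1, and Wee1, the kinase that inhibits it. Cdc25b had 136 and 108 reads, a ratio of 1.27 (0.978 to 1.65). Wee1 had 32 and 18 reads, a ratio of 1.79 (0.975 to 3.39). Both intervals only just included 1, and both ratios lay above 1. On the intron with the most reads the ratio was 1.55 for Cdc25b and 0.905 for Wee1, so Wee1 then lay below 1.

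Top2a, the topoisomerase that untangles sister chromatids, had 65 reads with IL-10 and 68 without, a ratio of 0.963 (0.675 to 1.37). Mki67, the proliferation marker Ki-67, had 7 and 9 reads. The mitotic kinases lay apart in both directions at low depth. Plk1 had 15 and 8 reads, a ratio of 1.89 (0.752 to 5.14), the highest of all measured members. Aurka, which matures the spindle poles, had 8 and 19 reads, a ratio of 0.424 (0.161 to 1.01), the lowest. The Aurka ratio was under 0.5 but its interval included 1, so it was not called. Aurkb had 5 and 7 reads and was not measured.

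The spindle checkpoint delays anaphase until chromosomes are attached. Its member Bub3 was the most abundant gene of the group, with 320 reads with IL-10 and 377 without, a ratio of 0.855 (0.734 to 0.995). Its interval is narrow because its reads are many, and 5 of its 7 introns with at least 5 reads were lower with IL-10. Bub1b had 60 and 52 reads, a ratio of 1.16 (0.788 to 1.72), and Ttk, the kinase Mps1, had 15 and 12 reads, a ratio of 1.26 (0.550 to 2.95). Bub1 had 6 and 4 reads, Cdc20, which activates the anaphase-promoting complex, had 5 and 4, Birc5 (survivin) had 9 and 3, and the kinesin Cenpe had 4 and 12. These 4 genes were not measured. The joins of 3 genes are printed as those of the most abundant mitotic gene, a gene seen on most of its many introns, and the gene with the lowest ratio: Bub3 intron 3 at chr7:138705121-138706847 (plus strand), Top2a intron 27 at chr11:98860662-98862081 (minus strand) and Aurka intron 8 at chr2:172182482-172182580 (minus strand), in mm9, upstream exon in lower case and downstream exon in capitals.
Bub3: tgaacactgatcaagAAAATCTTGTTGGAA
Top2a: attgaagaactggagGTTGTCGAGGCCAAG
Aurka: agaaggatatctcggGTTGAATTCACTTTC
The Bub3 join held 94 and 122 reads (IL-10, then untreated), the Top2a join 4 and 8, and the Aurka join 4 and 8.

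The limit of 20 reads fell among S and mitotic genes. Just inside it were Tyms with 23 reads over both libraries, Plk1 with 23 and Ccna2 with 24, and just outside it were Mki67 and Cenpe with 16 and Mcm7 and Rrm2 with 13.

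Levels were compared between genes as the mean of the libraries in reads per matched intron per 1000000 named reads. Bub3 had the highest level at 11.3, in the 84.2nd percentile of measured genes, then Cdk4 at 9.98 (82.1), Cdkn1a at 7.53 (76.4), Cdt1 at 7.11 (75.3) and Mcm6 at 5.37 (68.2). Mcm3 stood at 4.36, Cdkn1b at 4.28, Ccnd1 at 3.83 and Rrm1 at 3.61. Rb1 (2.50), E2f1 (2.47) and Cdc25b (1.98) were near or under the middle of all genes. The lowest measured members were Tyms at 0.497, Plk1 at 0.427, Ccne1 at 0.405 and Ttk at 0.292. The divisor counts annotated introns with a read in either library, so side junctions with few reads lower a level and unseen introns are left out. Bub3 had 697 reads over 8 matched introns, with 696 on the 7 of its main transcript. Cdk4 had 692 over 9, with 690 on 7, and Cdkn1a 174 over 3, with 171 on 2. The order of these genes therefore depends on the divisor as well as on counting error. Neighbours in this order such as Mcm3 and Cdkn1b cannot be ordered by it.

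By group, the median level of measured genes was 1.27 for G1 (23.6th percentile), 2.94 for S (50.5th) and 0.653 for mitotic genes (8.69th), before the 16 unmeasured genes are counted. Of the mitotic genes Bub3 and Cdc25b (37.4th percentile) stood apart, while the cyclins and kinases of mitosis lay at or under the 14.5th percentile, that of Cdk1, or were unmeasured. The plot of levels shows where the members fall among all genes.

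**Figure D4:**
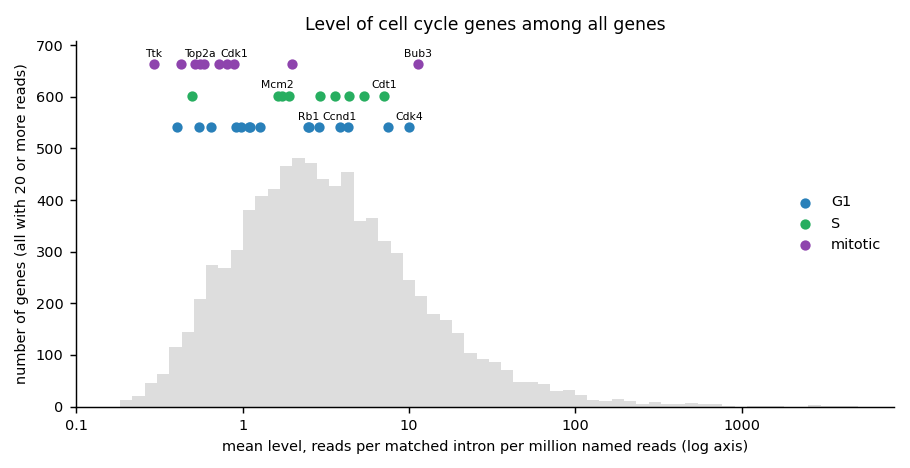
Mean level of each measured member (points, by group) above a histogram of all 8364 measured genes, in reads per matched intron per 1000000 named reads on a log axis. Mitotic genes other than Bub3 and Cdc25b lie left of the peak, with Ttk at 0.292, and Cdk4 and Bub3 lie right of the peak.

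The introns of the main transcript were counted for all 50 genes, with no minimum of reads. In the G1 group 140 of 155 introns had at least 1 read in either library (90.3%), in the S group 131 of 176 (74.4%) and in the mitotic group 157 of 258 (60.9%). Rb1, Mcm3, Mcm6 and Rrm1 had reads on all of their introns, Top2a on 30 of 35, Cenpe on 11 of 45 and Bub1 on 7 of 24. Introns of a gene are read from the same transcripts, and the counts of introns per library were alike: 113 and 124 (G1), 122 and 121 (S), 123 and 121 (mitotic), IL-10 first.

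Some members have processed pseudogenes, copies made from spliced RNA that hold the exon join without the intron, so that a read could align there without a gap. Joins were therefore searched, as 50-base windows with at most 2 mismatches, against the transcripts of all other genes. Of 589 joins 61 had such a copy, in 17 members (2 of the G1 group, 7 of S and 8 of mitotic). Reads were seen on 27 of the 61 copied joins (44.3%, median 0 reads) and on 401 of the 528 others (75.9%, median 4 reads). These pooled shares mix genes of different depth, and joins of 1 gene are not independent. Within genes the shares went both ways. Plk1 had reads on 4 of 4 copied and 3 of 5 other joins, Cdc6 on 1 of 5 and 1 of 6, and Mcm7 on 3 of 12 and 1 of 2.

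Among the members with few reads, Pcna had copies of 5 of its 5 joins (in Pcna-ps2), Mcm7 of 12 of 14 (Gm5487), Ccnb1 of 7 of 8 (among others Ccnb1-ps), Cdc20 of 5 of 9, Cdc6 of 5 of 11 (Gm9430) and Rrm2 of 3 of 9. Chek1, Cdkn2c, Ccnb2, Bub1 and Aurkb were also unmeasured and had no copied join. For Tyms 4 of 6 joins had a copy, and these held 18 of the 22 reads on its main transcript. On the 4 reads of the other joins Tyms would not have been measured, and its ratio of 0.775 rests on the copied joins. For Plk1 4 of 9 joins had a copy, and these held 18 of its 23 reads. On the 5 reads of the other joins Plk1 would not have been measured, and its ratio of 1.89 rests on the copied joins. The part of these copies in the low counts was not tested, and the values of Pcna, Mcm7 and Ccnb1 from spliced reads are uncertain. The join of Pcna with its 1 read (intron 4, mm9 chr2:132075634-132076979, minus strand, copied) and the join of Mcm7 with the most reads (intron 12, mm9 chr5:138607307-138607910, minus strand, not copied) are printed as an example of each kind, upstream exon in lower case and downstream exon in capitals.
Pcna: aaagaagaggaggcgGTAACCATAGAGATG
Mcm7: catgaaacttatgagACGGTACATAGCCAT
The Mcm7 join without a copy held 7 of the 13 reads of that gene, 1 with IL-10 and 6 without.

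Without the copied joins the ratios of the abundant members moved little. Bub3 became 0.883 (0.723 to 1.08) and Mcm6 0.860 (0.731 to 1.01), so both intervals then included 1. Cdk4 became 0.955 (0.815 to 1.12), Mcm4 0.810 (0.641 to 1.02), Top2a 0.941 (0.644 to 1.37) and Ccnd3 1.61 (0.688 to 3.97).

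**Figure D5:**
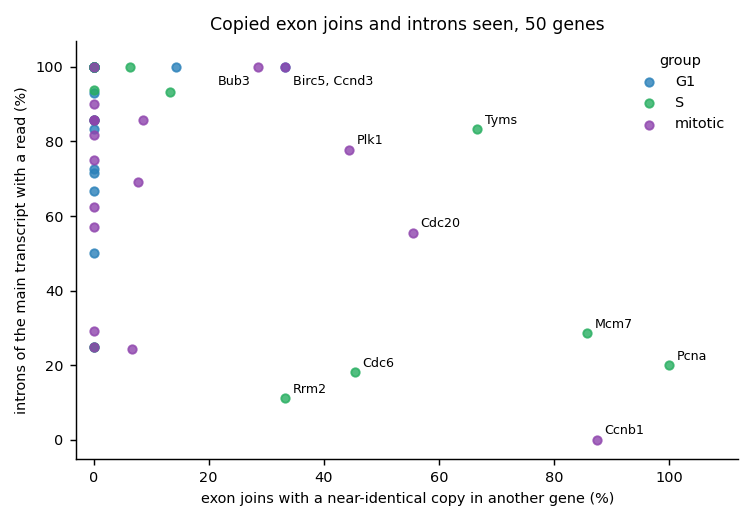
Share of each gene's exon joins that have a near-identical copy in another gene (horizontal, %) against the share of its introns with a read (vertical, %), for the 50 genes by group. Pcna, Mcm7 and Ccnb1 lie at the lower right, and genes without copies cover the whole vertical range down to 25%.

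Splice choice was compared where junctions of a member shared a donor or an acceptor with at least 20 reads in each library. There were 8 such sites in Bub3, Cdk4, Cdkn1a, Cdkn1b and Cdt1, with 19 junctions, and none differed by 20 percentage points with intervals that did not overlap. Over all genes 0.116% of 19887 junctions did. The largest difference was 7.14 points at Cdkn1a, where the junction at chr17:29228047-29235341 (plus strand, mm9), whose donor lies upstream of the usual one, took 0 of 28 reads with IL-10 (exact binomial 95% interval 0 to 12.3%) and 3 of 42 without (1.5% to 19.5%). The usual junction at chr17:29230807-29235341 took 27 of 28 and 39 of 42 reads. At these depths a difference of a few points was not detectable.

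What the members share outside the data was looked at in RefSeq promoters (GRCm38.p6), each 300 bases from 250 before a start site to 50 after it. There were 50 promoters of 43 members, and 32851 promoters of all genes. E2F motifs were searched as TTTGGCGC, TTTCCCGC, TTTGCCGC or TTTCGCGC, STAT as TTCCNGGAA, the cell cycle homology region (CHR) as TTTGAA or TTCGAA and the CCAAT box as CCAAT, all on both strands, with overlapping matches counted separately. An E2F match stood in 7 of 14 promoters of the S group (50%), 5 of 20 of G1 (25%) and 1 of 16 of mitotic genes (6.25%), against 2.26% of all promoters. A CHR match stood in 13 of 16 mitotic promoters (81.3%), 2 of 14 of S and 3 of 20 of G1, against 19.2% of all. CCAAT stood in 15 of 16 mitotic promoters (93.8%), 71.4% of S and 45.0% of G1, against 37.4% of all.

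The promoter sets thus differed in the motifs they held, while the ratios of the 3 groups all lay near 1. The STAT motif, the form bound by the factor that IL-10 activates, was in 0 of the 50 member promoters and in 1.15% of all, which says only that these letters are absent from these windows. Promoters of 1 gene can overlap, as those of Bub3 do, so the promoters are not all independent. Example windows are printed on the gene's strand, with the match in capitals: E2F for Mcm5 (chr8:75109330-75109389, plus strand) and Mcm6 (chr1:128359782-128359841, minus strand), and CHR for Cdk1 (chr10:69352952-69353009, minus strand) and Top2a (chr11:99024278-99024335, minus strand), in GRCm38.p6.
Mcm5: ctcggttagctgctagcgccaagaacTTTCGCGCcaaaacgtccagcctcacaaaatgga
Mcm6: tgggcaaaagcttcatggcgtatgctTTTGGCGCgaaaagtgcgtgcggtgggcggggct
Cdk1: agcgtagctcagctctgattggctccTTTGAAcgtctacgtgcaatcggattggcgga
Top2a: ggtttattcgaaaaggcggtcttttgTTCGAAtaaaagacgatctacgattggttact
The matches begin 153 bases (Mcm5), 110 bases (Mcm6), 71 bases (Cdk1) and 120 bases (Top2a) before the start. Ratios of measured members with an E2F match ran from 0.695 (E2f3) to 1.17 (Cdk1), and E2f3 and Cdk1 each held a CHR match too. Those of members with a CHR match ran from 0.424 (Aurka) to 1.89 (Plk1).

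The rest of the pathway was given by 231 other genes in 10 lists, of which 163 were measured. Of these 3 were called higher (Wdhd1, E2f8 and Rpa2) and 4 lower (Kif23, Esco1, Orc6 and Rfc5), and the median log2 ratio was -0.02. By the interval alone 13 lay above 1 (7.98%, against 12.8% of all measured genes) and 19 below (11.7%, against 13.0%). Counts of 3 and 4 among 163 stand near the 1.75% and 1.49% of all measured genes. The called genes had 5 to 45 reads in each library, so their ratios were imprecise.

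Other G1 regulators had 20 of 26 genes measured and a median of 0.01. E2f8, an atypical repressor E2F, had 15 reads with IL-10 and 5 without, a ratio of 3.02 (1.04 to 10.6). Cdkn1c (p57) had 40 and 71, a ratio of 0.568 (0.375 to 0.848), and E2f5 had 36 and 21, a ratio of 1.73 (0.981 to 3.11). At origins and forks 14 of 19 were measured, with a median of -0.12. Wdhd1, a fork protein, had 30 and 9 reads, a ratio of 3.36 (1.55 to 8.04), and Orc6, of the origin recognition complex, had 10 and 24, a ratio of 0.420 (0.179 to 0.911). Timeless had 7 and 14 reads, a ratio of 0.504 (0.172 to 1.33).

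Among replicative polymerases and clamp loaders 21 of 23 were measured, with a median of 0.04. Rpa2, of the single-strand binding complex, had 45 and 21 reads, a ratio of 2.16 (1.26 to 3.81). Rfc5, a clamp loader subunit, had 13 and 30, a ratio of 0.437 (0.209 to 0.863), and the polymerase gene Pole had 15 and 9, a ratio of 1.68 (0.688 to 4.35). Nucleotide supply and chromatin assembly genes had 16 of 20 measured, a median of -0.03 and no call, with Dctpp1 at 73 and 109 reads, a ratio of 0.675 (0.495 to 0.916). The other genes named by the rule for that list were Asf1b (0.624) and Hells (1.51), with intervals that included 1.

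Cohesin and condensin genes had 18 of 23 measured and a median of -0.03. Esco1, which acetylates cohesin, had 10 and 25 reads, a ratio of 0.403 (0.173 to 0.869), Smc2 had 54 and 78, a ratio of 0.697 (0.484 to 0.999), and Ncaph had 16 and 10. Kinetochore and spindle genes were measured for 24 of 50, with a median of -0.04. Kif23, a kinesin of the cell midzone, had 10 and 30 reads, a ratio of 0.336 (0.146 to 0.706), while Ect2 (0.648) and Mad2l1 (0.661) had intervals that included 1. The low share of that list that was measured, like that of the mitotic members, stands beside 20 of 26 for other G1 regulators. A low share was not particular to mitotic genes, since 8 of 19 antiproliferative factors were measured.

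The anaphase-promoting complex, which also acts in resting cells, had 15 of 17 genes measured, with a median of 0.09, and Cdc27 had 147 and 195 reads, a ratio of 0.759 (0.609 to 0.946). Anapc15 (1.64) and Anapc10 (1.34) had intervals that included 1. The DREAM complex, which holds cell cycle genes silent in quiescence, had 4 of 7 measured and a median of 0.09, with Lin9 at 30 and 20 reads and Lin37 at 76 and 87. Its chromatin subunit Rbbp4 had 603 and 552 reads, a ratio of 1.10 (0.979 to 1.24), while Foxm1 and Mybl2, which join its core in dividing cells, had 1 and 4 reads and 3 and 5 reads.

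DNA damage checkpoint and p53 genes had 23 of 27 measured and a median of 0.02, with Atm at 52 and 78 reads, a ratio of 0.672 (0.464 to 0.966). Mdm4 (1.34) and Atrip (0.777) had intervals that included 1. Antiproliferative factors had 8 of 19 measured and a median of -0.00. Ndrg1 had 401 reads with IL-10 and 282 without, a ratio of 1.43 (1.23 to 1.67), Mxd4, a Max partner, had 26 and 47, a ratio of 0.557 (0.331 to 0.919), and Foxo3 had 26 and 36, a ratio of 0.728 (0.422 to 1.24).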

How the data were processed

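RNA of adherent peritoneal macrophages was sequenced as 1 library with IL-10 and 1 without. Both samples carry the same protocol text, with the treatment in it, so groups came from the titles. Inserts measured 188 bp with IL-10 and 197 bp without, per the labels. Per the submitters' processing notes, TopHat, Cufflinks and mm9 were used, with no version. The deposited values are raw read counts per splice junction, per the file headers. Cufflinks values are not used here.

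Junctions were named from GENCODE M21 (GRCm38): chromosome, strand and exact intron length had to match at an offset shared by at least 2 introns of the gene, up to 20 Mb. Of 131057 junctions 106347 matched (81.1%, with 98.1% of reads). A gene with 1 matched junction was accepted, as a description only, at the offset of both flanking genes (Ccnd2, Cdkn2d, Pcna and Rrm2). Genes without an intron cannot be measured.

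Ratios used shares of uniquely named reads with exact conditional binomial 95% intervals (Clopper-Pearson). For the intron with the most reads, shares were of the reads on such introns of all genes. Calls needed 20 reads and a 2-fold ratio, and log2 ratios a pseudocount of 0.5 reads. Splice shares needed 20 reads per site in each library. The script was tested on simulated data. Alternatives were the TMM factor of edgeR 4.0.16, the size factor of DESeq2 1.42.0, the total of all junction reads, other minimums, folds, intervals and pseudocounts, the intron with the most reads, and shared introns. Python 3.11.15, scipy 1.17.1, R 4.3.3 and BLAST 2.17.0 were used, the last for copied joins.

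Members, lists and thresholds were chosen with earlier results of these data known. All 50 members were named, and of each other list up to 3 measured genes with the largest absolute log2 ratio plus any called. Foxm1, Mybl2 and the marker genes named were chosen after their values were seen. Promoters came from RefSeq (GRCm38.p6), with 43 of 50 members matched.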

Additional observations from a re-analysis of the deposited data

How the results depend on the processing

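No paired analysis was possible because each group is 1 library, and no replicate could be left out. When each gene was read from its 1 intron with the most reads, 1 member was called lower (Rbl1, ratio 0.381), 0 had an interval above 1 and 1 had an interval below 1 (Rbl1). There the ratio of Mcm2 was 0.931, on the other side of 1. Ratios that left their counting interval were also those of Cdk2 1.69, Mcm5 1.22, Wee1 0.905, Top2a 0.517 and Bub1b 2.07. With a 99% interval, 0 members lay above 1 and 1 below (Rb1). With the TMM factor 3 lay below, Rbl1 being lost. The cause was not tested, beyond the smaller number of reads on 1 intron and the wider interval at 99%. No member was called higher or lower under any other scaling, minimum of reads, fold or interval run, and no splice choice was called under its alternatives. Leaving out copied joins was chosen after seeing the data. The main limits are 1 library per group, few reads for most mitotic genes, intron matches across genome builds, and reads that may be lost to processed pseudogenes.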

Other observations

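Junctions outside the annotation were rare at members' splice sites. There were 16, in 10 members, with 19 reads in all, against 7268 reads on matched introns. Of these 14 had 1 read and none had 10. The most reads were on a junction of Chek2 at chr5:111269451-111270224 (plus strand, mm9), with 1 read with IL-10 and 2 without, and on one of Rb1 at chr14:73697643-73697860 (minus strand, mm9), with 1 and 1.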
